A study of Homo sapiens with 12 samples.

Results

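HOX cluster genes are the homeobox genes that lie side by side in the HOXA, HOXB, HOXC and HOXD clusters. Every annotated symbol made of HOXA, HOXB, HOXC or HOXD and a number was taken as a member, and antisense and other noncoding genes of the clusters were left out. The 27 members stood on 28 transcript clusters, the array's unit for 1 gene, among 14884 annotated symbols in all. HOXD4 had a pair of transcript clusters, and the one with the higher mean over the arrays was used. The members were HOXA2, 10 HOXB genes (HOXB1 to HOXB9 and HOXB13), 7 HOXC genes (HOXC4 and HOXC8 to HOXC13) and 9 HOXD genes (HOXD1, HOXD3, HOXD4 and HOXD8 to HOXD13). RefSeq lists 39 such genes, and the other 12 were not analysed here.

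AGS, MKN1 and SNU601, 3 established lines of stomach cancer cells, were read on 12 Affymetrix Human Gene 2.0 ST arrays. A line was treated with Rhosin, an inhibitor of the GTPase RhoA, with JK136 or JK139, which have code names and no described structure, or with DMSO as the vehicle. There was 1 array for each line and treatment, and all lines were grown in RPMI-1640 medium with fetal calf serum. The labels state neither dose nor exposure time, and do not say that the arrays of a line came from separate cultures. Line and treatment were both terms of the fit, so the p-values for lines and for treatments rest on the same residual spread. With 1 array for each line and treatment, this spread holds array noise and any difference between lines in response to treatment. It is not a spread between replicate arrays. Signals are on the log2 scale. Differences were taken only between arrays for the same gene, since probes of different genes differ in brightness. For the same reason, 1 signal level applied below to all genes is a rough guide. It served to choose the genes tested and to count those that reached it.

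HOX proteins are homeodomain transcription factors that give cells their position along the body axis. The order of the genes in a cluster follows the order in which they act from head to tail, a property called colinearity, and genes of the same number in different clusters are paralogs that arose by duplication of an ancestral cluster. HOX proteins bind DNA with the TALE homeodomain cofactors of the PBX, MEIS and PKNOX families. Polycomb proteins keep the clusters silent through methylation of histone H3 at lysine residues, Trithorax proteins keep them active, and retinoic acid and the CDX factors switch them on in the embryo and in the gut.

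A member was tested if its mean over the 12 arrays reached the 40th percentile of all symbols, 4.61 on the log2 scale. Of the 27 members 17 passed, and 8930 of 14884 symbols passed in all. All 7 HOXC members passed, 6 of 10 HOXB members (HOXB3, HOXB4, HOXB5, HOXB6, HOXB7 and HOXB9), 4 of 9 HOXD members (HOXD4, HOXD8, HOXD10 and HOXD11), and not HOXA2. Values of the 10 untested members are given without a call from the fit that was reported. Line means at or above 4.61 were found for 13 of the 27 members in AGS, 18 for MKN1 and 17 for SNU601, while 58.3%, 60.5% and 57.9% of all symbols did. In 12 members all 3 line means lay at or above that level, and in 8 members no line mean did: HOXB1, HOXB2, HOXB8, HOXD1, HOXD3, HOXD9, HOXD12 and HOXD13.

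Array medians over all transcript clusters lay between 4.14 and 4.20. The lines were checked against cell type markers. In AGS and in SNU601 all 12 epithelial markers had a line mean at or above 4.61, and in MKN1 10 of 12. Their mean signal was 7.78 to 7.89 in the AGS arrays, 6.41 to 6.45 in the MKN1 arrays and 8.11 to 8.20 in the SNU601 arrays. The epithelial list was not uniform, since KRT8, KRT18, KRT19 and CLDN3 had their highest line mean in MKN1. The other epithelial markers had their lowest line mean there. The mean signal over 8 mesenchymal markers was 6.08 to 6.16 in the MKN1 arrays, 3.63 to 3.76 in the AGS arrays and 3.70 to 3.87 in the SNU601 arrays. Of the 8, 5 had a line mean at or above 4.61 in MKN1, and 1 in AGS and in SNU601. ZEB2, TWIST1 and TWIST2 were below that level in every line and not higher in MKN1. Of 10 gastric markers 6 reached that level in AGS, 3 in MKN1 and 10 in SNU601. No endothelial marker of 3 reached it in any line, and of the blood cell markers LYZ, lysozyme, which gastric glands also make, did in AGS and SNU601, and CD14 did in MKN1. The part of these marker differences in the HOX differences between MKN1 and the other lines was not tested.

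The 3 lines carried different members at their highest signal. AGS stood above both other lines in every array in HOXB5, HOXB6 and HOXB9 of the HOXB cluster, and narrowly in HOXB3. SNU601 did so in HOXC4, HOXC8, HOXC9, HOXC10 and HOXC11, and MKN1 in the tested members HOXB7, HOXC13 and HOXD10. Every MKN1 array was likewise above both other lines in the untested HOXA2, HOXB13 and HOXD13. MKN1 also had the highest mean, with overlap, in HOXB4, HOXC12, HOXD8 and HOXD11. Cell line held a median of 86.2% of the sum of squares of a tested member, treatment 4.69% and the residual 6.27%, beside 82.0%, 5.30% and 10.9% over all tested genes.

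**Figure D1:**
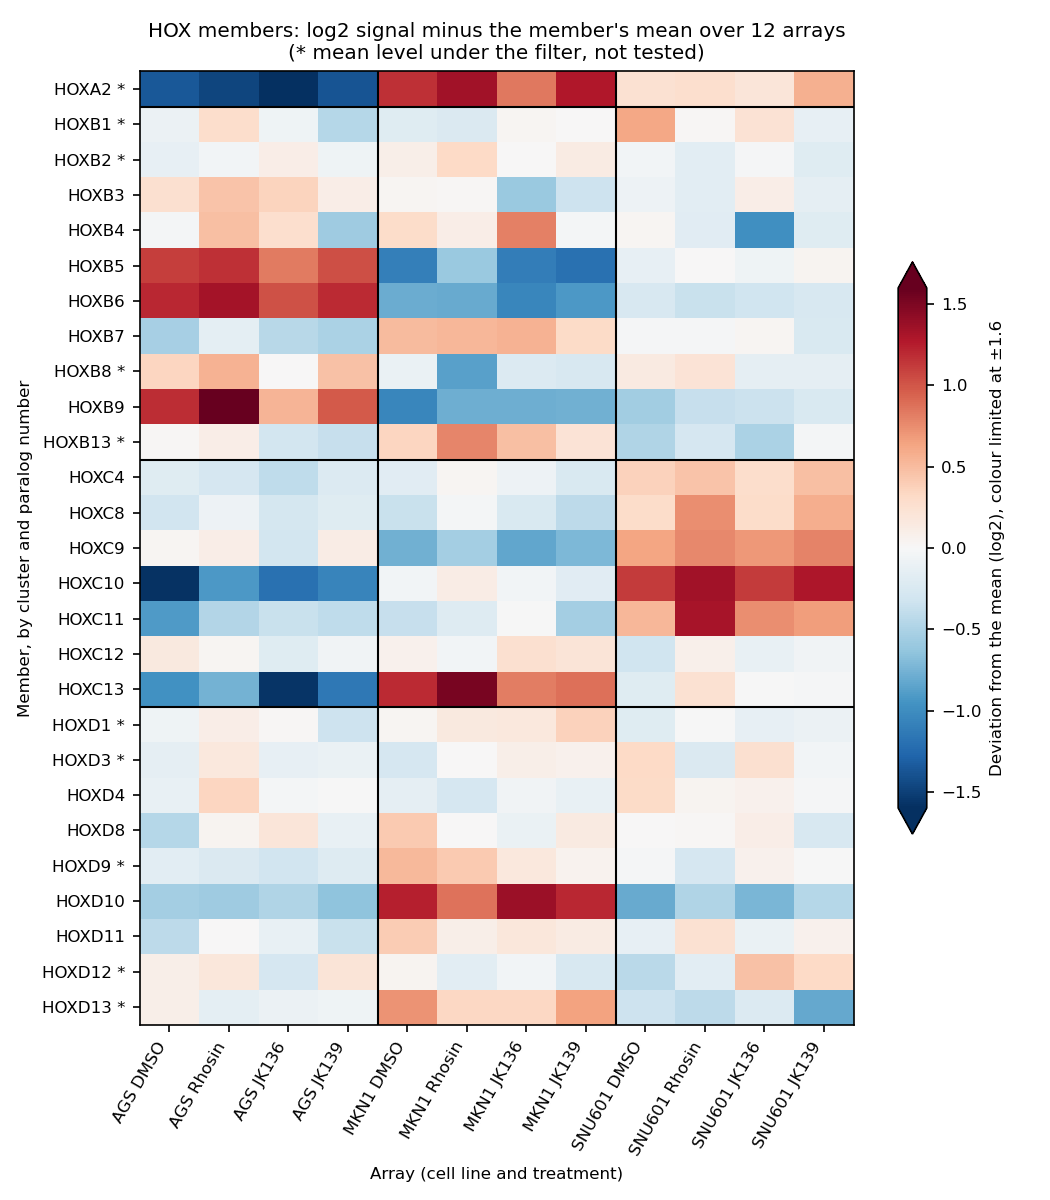
Deviation of each member's log2 signal from its own mean over the 12 arrays, with arrays in columns and members in rows by cluster and paralog number. Red marks signal above the member's mean and blue below it, and a star marks the 10 members that were not tested. HOXB5, HOXB6 and HOXB9 are red in AGS, HOXC4 and HOXC8 to HOXC11 in SNU601, and HOXC13 and HOXD10 in MKN1.

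Between MKN1 and AGS, 10 of 17 tested members differed at a Benjamini-Hochberg adjusted p under 0.05 in limma, or 58.8%, beside 66.3% of all tested genes. Of these 5 were higher in MKN1, beside 35.3% of all genes, and 5 lower, beside 31% of all genes. Between SNU601 and AGS 11 members differed, or 64.7% beside 52.7%, with 7 higher in SNU601 (background 29.9%) and 4 lower (background 22.8%). Between SNU601 and MKN1 11 members differed, beside 63.4% of all genes, with 7 higher in SNU601 (background 32.3%) and 4 lower (background 31.1%). The share of members called was near that of all genes in each pair of lines. The median absolute difference of the tested members was 0.51, 0.66 and 0.59 on the log2 scale in the 3 comparisons, beside 0.40, 0.27 and 0.37 over all tested genes. HOXC12, HOXD4 and HOXD8 were called in no pair of lines, and 6 members were called in all 3 pairs, beside 17.4% and 26.5% of all tested genes.

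In AGS all 4 arrays lay above the 8 others in HOXB5, HOXB6, HOXB9 and, narrowly, HOXB3. This is 4 of 17 members beside 10.9% of all tested genes. The AGS arrays lay below the others in HOXC10 and HOXC13, beside 14.9% of all genes. MKN1 stood above both other lines in 3 members, HOXB7, HOXC13 and HOXD10, beside 21.3% of all genes. It stood below both in 4 members, HOXB5, HOXB6, HOXB9 and HOXC9, beside 19.1%. SNU601 stood above both in 5 members, all of them HOXC genes, beside 13.2% of all genes, and below both in 0 members, beside 10.2%. Of the 5, HOXC11 had a line mean at or above the filter level in SNU601 only, 5.54 beside 4.18 in AGS and 4.44 in MKN1. Its place among the tested members therefore depended on its SNU601 signal. Of the untested members, HOXA2, HOXB13 and HOXD13 had all MKN1 arrays above the others. All AGS arrays lay below the others in HOXA2, and all SNU601 arrays did in HOXD13.

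**Figure D2:**
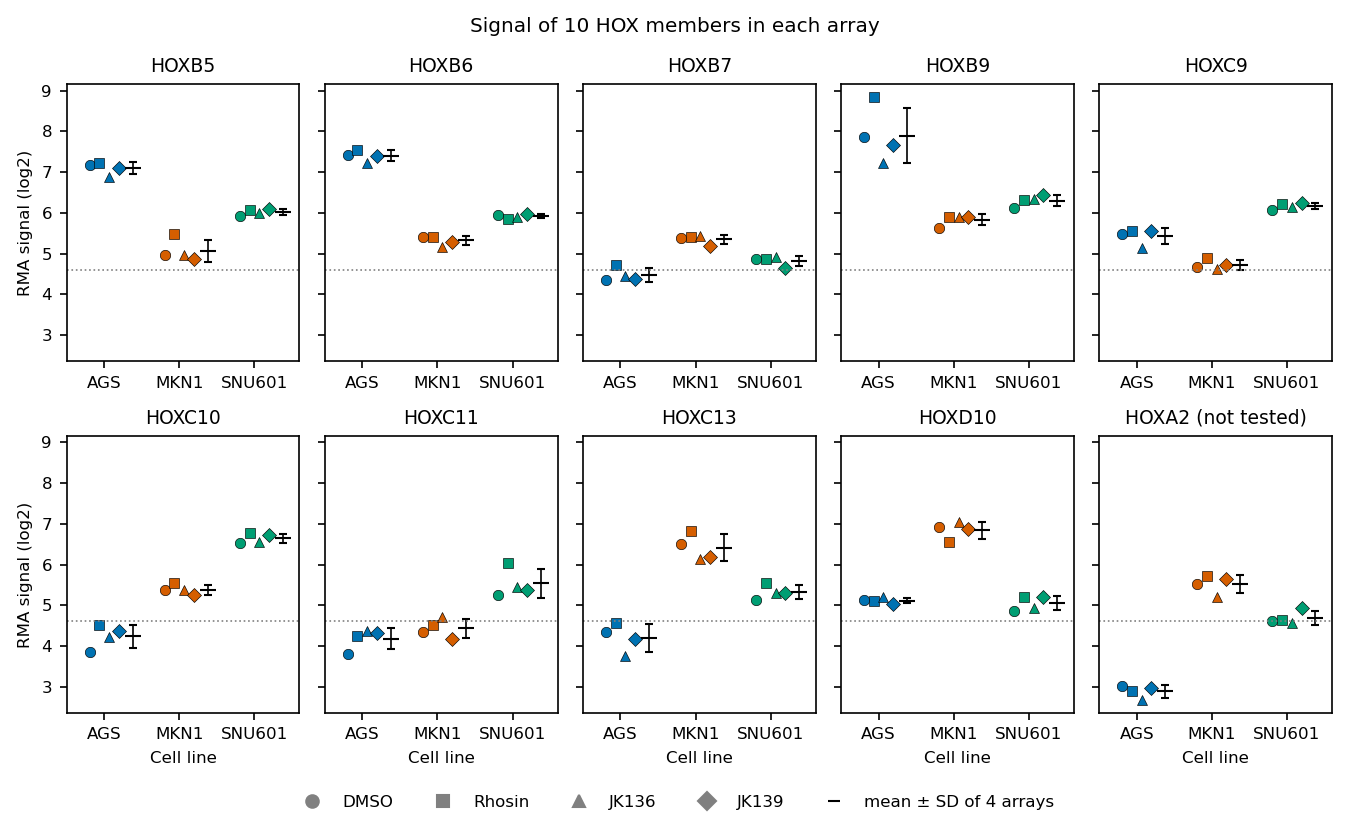
Log2 signal of 10 members in each of the 12 arrays, by line (colour) and treatment (symbol), with the mean and SD of the 4 arrays of a line beside them. The dotted line is the filter level of 4.61. In most panels the lines form separate bands that are wider apart than the treatments within a line.

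Among the tested HOXB members, AGS carried the highest signal of HOXB3, HOXB5, HOXB6 and HOXB9, and MKN1 that of HOXB4 and HOXB7. HOXB5 (transcript cluster 16846254), which acts in the gut and enteric nervous system, read 7.17 with DMSO, 7.22 with Rhosin, 6.89 with JK136 and 7.09 with JK139 in AGS. In MKN1 it read 4.97, 5.47, 4.96 and 4.86 in the same order, and in SNU601 5.93, 6.07, 5.996 and 6.10. The 3 lines did not overlap, with AGS highest and MKN1 lowest. HOXB5 was 4.08-fold lower in MKN1 than in AGS (log2 difference -2.03 ± 0.10 SE, adjusted p = 7.94e-09) and 2.10-fold lower in SNU601 than in AGS (-1.07 ± 0.10, adjusted p = 4.47e-06). SNU601 stood 0.96 ± 0.10 above MKN1 on the log2 scale (adjusted p = 5.79e-06).

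HOXB6 (16846259), its neighbour, ran in the same order. It read 7.43, 7.55, 7.23 and 7.41 in the AGS arrays with DMSO, Rhosin, JK136 and JK139. The MKN1 arrays read 5.42, 5.41, 5.17 and 5.30, and the SNU601 arrays 5.96, 5.86, 5.89 and 5.96. Again no arrays of different lines overlapped. The log2 difference of MKN1 from AGS was -2.08 ± 0.08 (adjusted p = 5.61e-10), that of SNU601 from AGS -1.49 ± 0.08 (adjusted p = 3.06e-08), and that of SNU601 from MKN1 0.59 ± 0.08 (adjusted p = 3.22e-05).

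HOXB9 (16846291) varied more within AGS than any other tested member did within a line. It read 7.86 with DMSO, 8.84 with Rhosin, 7.23 with JK136 and 7.66 with JK139 there, a mean of 7.90 ± 0.68 (SD, n = 4 arrays). In MKN1 it read 5.64, 5.90, 5.90 and 5.91, and in SNU601 6.12, 6.31, 6.34 and 6.43. All AGS arrays lay above those of both other lines, and all SNU601 arrays above those of MKN1. The log2 difference of MKN1 from AGS was -2.06 ± 0.22 (adjusted p = 4.28e-06) and that of SNU601 from AGS -1.60 ± 0.22 (adjusted p = 6.53e-05). Although SNU601 and MKN1 did not overlap, their difference of 0.46 ± 0.22 missed the threshold (adjusted p = 0.0812) in the fit whose spread includes the AGS arrays.

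HOXB7, which lies between HOXB6 and HOXB8, went the other way from its neighbours. HOXB7 (16846271) read 4.34, 4.72, 4.44 and 4.38 in AGS, 5.38, 5.41, 5.43 and 5.18 in MKN1, and 4.86, 4.86, 4.91 and 4.64 in SNU601. AGS was lowest in mean, with its Rhosin array inside the range of SNU601, and MKN1 stood above both. The log2 difference was 0.88 ± 0.08 for MKN1 from AGS (adjusted p = 1.74e-06), 0.35 ± 0.08 for SNU601 from AGS (adjusted p = 0.00395) and -0.53 ± 0.08 for SNU601 from MKN1 (adjusted p = 0.000125).

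HOXB3 and HOXB4 overlap each other as gene models, so that signal of one may be read in the other, and their calls were weak. HOXB3 had line means of 5.41 ± 0.15 in AGS, 4.90 ± 0.30 in MKN1 and 5.05 ± 0.12 in SNU601 (SD, n = 4 arrays each). In AGS it read 5.37, 5.57, 5.48 and 5.22, in MKN1 5.15, 5.14, 4.53 and 4.79, and in SNU601 5.03, 4.96, 5.22 and 4.98. The lowest AGS array and the highest SNU601 array both read 5.22 after rounding, with AGS the higher. HOXB3 was lower in MKN1 than in AGS by a log2 difference of -0.51 ± 0.13 (adjusted p = 0.00397). The difference of SNU601 from AGS, -0.36 ± 0.13 (adjusted p = 0.0327), missed the threshold when any of 5 arrays was left out: the Rhosin and JK136 arrays of AGS, or the DMSO, Rhosin and JK139 arrays of SNU601. It then lay between -0.26 and -0.39 with adjusted p up to 0.134.

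HOXB4, a factor of blood stem cells, read 4.71, 5.22, 5.02 and 4.18 in AGS, 5.03, 4.85, 5.55 and 4.71 in MKN1, and 4.77, 4.56, 3.76 and 4.55 in SNU601. The lines overlapped, and the JK136 arrays held both the highest MKN1 value and the lowest SNU601 value. SNU601 was lower than MKN1 by a log2 difference of -0.62 ± 0.25 (adjusted p = 0.0434). Without the MKN1 JK136 array it was -0.38 (adjusted p = 0.186), and without the SNU601 JK136 array -0.28 (adjusted p = 0.178). The call was also lost without the DMSO array of AGS, the DMSO or JK139 array of MKN1, or the Rhosin array of SNU601, with differences between -0.62 and -0.67.

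The remaining 4 HOXB members were not tested. HOXB13, a gene of the prostate and the hindgut at the far end of the cluster, read 4.54 to 5.10 in MKN1, above its ranges of 3.96 to 4.43 in AGS and 3.81 to 4.29 in SNU601. HOXB8 had line means of 4.26 in AGS, 3.56 in MKN1 and 3.94 in SNU601. HOXB1 and HOXB2, at the opposite end, had ranges of line means of 0.28 and 0.24. In the fit without a filter, HOXB13 gave a log2 difference of 0.59 ± 0.14 for MKN1 from AGS (adjusted p = 0.0039) and HOXB8 one of -0.70 ± 0.17 (adjusted p = 0.00499). In that fit SNU601 missed the threshold against AGS in HOXB13 and HOXB8 (adjusted p = 0.355 and 0.187). Against MKN1 it missed in HOXB8 (adjusted p = 0.0967) and passed in HOXB13 (-0.77 ± 0.14, adjusted p = 0.00061).

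In the HOXC cluster, SNU601 carried the highest signal of every tested member from HOXC4 to HOXC11, and MKN1 that of HOXC13. HOXC10 (16751917), a posterior gene of hindlimb and lumbar levels, had the largest range of line means of all tested members. It read 3.84 with DMSO, 4.51 with Rhosin, 4.22 with JK136 and 4.37 with JK139 in AGS. In MKN1 it read 5.37, 5.54, 5.38 and 5.24, and in SNU601 6.54, 6.77, 6.55 and 6.72. The lines stood apart in 3 steps, and the AGS arrays lay below the filter level. HOXC10 was 5.31-fold higher in SNU601 than in AGS (log2 difference 2.41 ± 0.10, adjusted p = 4.75e-09) and 2.39-fold higher in SNU601 than in MKN1 (1.26 ± 0.10, adjusted p = 4.45e-07). MKN1 stood 1.15 ± 0.10 above AGS (adjusted p = 9.63e-07).

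HOXC11 (16751910), its neighbour, read 3.81, 4.25, 4.36 and 4.31 in AGS, 4.35, 4.52, 4.72 and 4.17 in MKN1, and 5.26, 6.05, 5.46 and 5.39 in SNU601. AGS and MKN1 overlapped at low signal, and SNU601 stood above both. The log2 difference of SNU601 was 1.35 ± 0.13 from AGS (adjusted p = 5.29e-06) and 1.10 ± 0.13 from MKN1 (adjusted p = 1.67e-05). That of MKN1 from AGS was 0.26 ± 0.13 (adjusted p = 0.11).

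HOXC9 (16751952), a thoracic-level gene on the other side of HOXC10, ordered the lines differently. Its arrays read 5.48, 5.55, 5.15 and 5.56 in AGS, 4.68, 4.90, 4.62 and 4.73 in MKN1, and 6.08, 6.22, 6.14 and 6.24 in SNU601. Here MKN1 rather than AGS was lowest, and no lines overlapped. SNU601 stood 1.44 ± 0.08 above MKN1 (adjusted p = 2.52e-08) and 0.73 ± 0.08 above AGS (adjusted p = 1.61e-05) on the log2 scale, and MKN1 differed from AGS by -0.70 ± 0.08 (adjusted p = 1.22e-05).

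HOXC8 read 5.11, 5.34, 5.14 and 5.23 in AGS, 5.06, 5.39, 5.17 and 5.01 in MKN1, and 5.71, 6.17, 5.72 and 6.002 in SNU601. SNU601 was higher than AGS by 0.69 ± 0.09 (adjusted p = 3.28e-05) and than MKN1 by 0.74 ± 0.09 (adjusted p = 1.05e-05). HOXC4, which shares a start site with HOXC5 and HOXC6 so that their signals may mix, had line means of 5.10 ± 0.09 in AGS, 5.25 ± 0.12 in MKN1 and 5.77 ± 0.09 in SNU601. It read 5.18, 5.10, 4.97 and 5.16 in AGS, 5.19, 5.41, 5.29 and 5.13 in MKN1, and 5.74, 5.82, 5.65 and 5.85 in SNU601. In both genes AGS and MKN1 overlapped while SNU601 lay above them. HOXC4 was higher in SNU601 by 0.66 ± 0.09 than in AGS (adjusted p = 4.33e-05) and by 0.51 ± 0.09 than in MKN1 (adjusted p = 0.000204).

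At the posterior end of the cluster the order of the lines changed. HOXC13 (16751900), known for its role in hair and nail growth, read 4.35 with DMSO, 4.57 with Rhosin, 3.75 with JK136 and 4.17 with JK139 in AGS. In MKN1 it read 6.51, 6.83, 6.13 and 6.20, and in SNU601 5.12, 5.55, 5.31 and 5.30. The 3 lines did not overlap. HOXC13 was 4.62-fold higher in MKN1 than in AGS (log2 difference 2.21 ± 0.12, adjusted p = 9.58e-09) and 2.16-fold higher in SNU601 than in AGS (1.11 ± 0.12, adjusted p = 7.89e-06). SNU601 differed from MKN1 by -1.10 ± 0.12 (adjusted p = 4.58e-06). HOXC12, between HOXC11 and HOXC13, had line means of 4.85, 4.99 and 4.77 in AGS, MKN1 and SNU601, and its largest difference was -0.22 ± 0.11 for SNU601 from MKN1 (adjusted p = 0.105, 95% confidence interval -0.47 to 0.02).

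Noncoding genes between the HOXC members were followed in the same arrays. HOTAIR, a long noncoding RNA between HOXC11 and HOXC12, read 3.07 to 3.23 in AGS, 3.29 to 3.62 in MKN1 and 4.21 to 4.66 in SNU601. MIR196A2, a microRNA gene between HOXC9 and HOXC10, read 2.85 to 3.77, 3.66 to 3.92 and 4.81 to 5.27. Both were highest in SNU601 without overlap, as HOXC9, HOXC10 and HOXC11 were. HOXC12, on the other side of HOTAIR, was lowest in SNU601, and HOXC9 was lowest in MKN1 where MIR196A2 was lowest in AGS. Neither passed the filter, and in the fit without it SNU601 stood 1.29 ± 0.09 above AGS for HOTAIR (adjusted p = 5.65e-07) and 1.53 ± 0.14 for MIR196A2 (adjusted p = 6.47e-06). HOXC13-AS, which lies beside HOXC13 on the other strand, was tested and had line means of 5.27, 5.88 and 5.57 in AGS, MKN1 and SNU601. It was highest in MKN1, as HOXC13 was, by 0.60 ± 0.09 over AGS (adjusted p = 8.1e-05). Of the 15 other genes listed for the clusters, all noncoding but PRAC1, 10 had ranges of line means from 0.04 to 0.40.

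MIR196A2 makes a microRNA that targets HOX messages, and its mature sequence is shown because HOX clusters hold 3 copies of this gene. RefSeq (GRCh38.p14) places mature miR-196a-5p of MIR196A2 at chr12:53991762-53991783 on the plus strand, that of MIR196A1 in the HOXB cluster at chr17:48632532-48632553 on the minus strand, and miR-196b-5p of MIR196B in the HOXA cluster at chr7:27169528-27169549 on the minus strand. The seed, bases 2 to 8, is in capitals.
hsa-miR-196a-5p: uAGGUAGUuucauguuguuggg
hsa-miR-196b-5p: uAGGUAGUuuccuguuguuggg
MIR196A1 and MIR196A2 give the same 22 bases, and miR-196b-5p differs from them at 1 base outside the seed. The array reads the RNA of the gene and not the mature microRNA, and near-identical copies may share probes. MIR196A1, which lies between HOXB9 and HOXB13, had line means of 3.11 in AGS, 3.33 in MKN1 and 4.20 in SNU601. Its order followed MIR196A2 and not the neighbouring HOXB9, which was highest in AGS. MIR196B had line means of 3.13, 3.23 and 3.45.

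**Figure D3:**
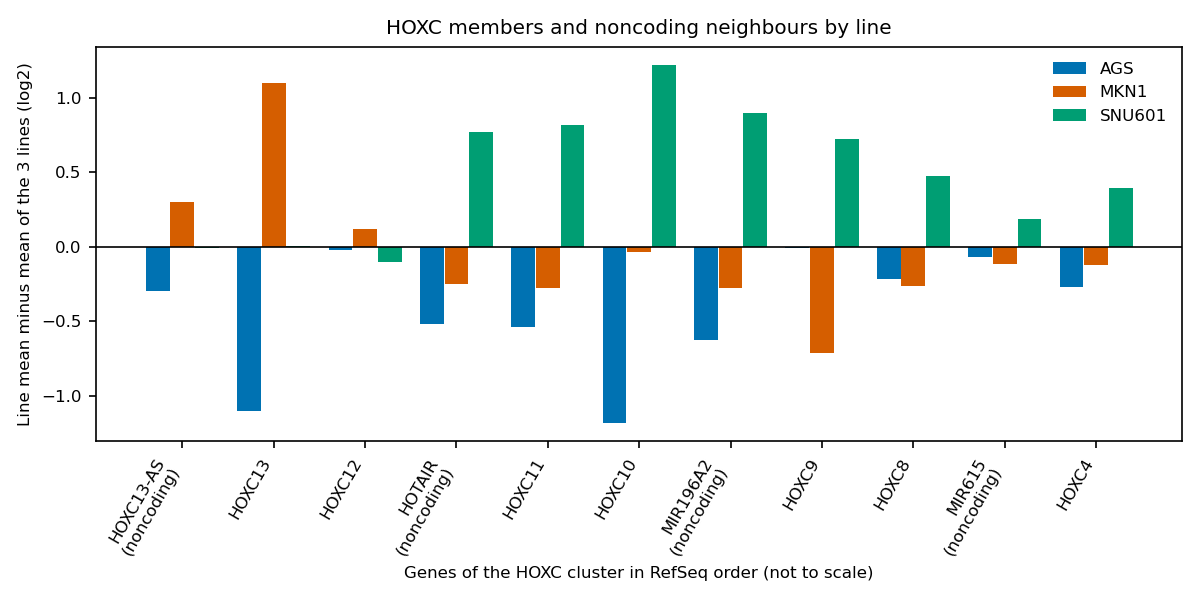
Line mean minus the mean of the 3 lines (log2) for the HOXC members and the noncoding genes of the cluster, placed in RefSeq order and not to scale, with 1 bar a line. SNU601 is highest from HOTAIR to HOXC4, and MKN1 is highest in HOXC13, HOXC13-AS and HOXC12.

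Among the tested members of the HOXD cluster 1 gene set MKN1 apart from both other lines. HOXD10 (16887936), a gene of the limb and lumbar cord, read 6.92 with DMSO, 6.55 with Rhosin, 7.04 with JK136 and 6.88 with JK139 in MKN1. In AGS it read 5.13, 5.10, 5.19 and 5.03, and in SNU601 4.87, 5.196, 4.94 and 5.22. All MKN1 arrays lay above the others, and AGS and SNU601 overlapped. HOXD10 was 3.32-fold higher in MKN1 than in AGS (log2 difference 1.73 ± 0.12, adjusted p = 8.86e-08), and SNU601 was lower than MKN1 by a log2 difference of -1.79 ± 0.12 (adjusted p = 6.71e-08). SNU601 and AGS differed by -0.06 ± 0.12 (adjusted p = 0.7, 95% confidence interval -0.31 to 0.20).

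HOXD11, beside HOXD10, differed less. It read 4.44, 4.87, 4.74 and 4.51 in AGS, 5.26, 4.95, 5.04 and 4.99 in MKN1, and 4.73, 5.11, 4.76 and 4.93 in SNU601. MKN1 lay above AGS without overlap, by 0.42 ± 0.12 (adjusted p = 0.00671), and SNU601 overlapped both. HOXD4 had line means of 5.19, 4.99 and 5.24 and HOXD8 of 4.72, 4.92 and 4.77 in AGS, MKN1 and SNU601, with adjusted p values from 0.0785 to 0.804 over the 3 pairs of lines. The second transcript cluster of HOXD4 read 3.76 to 4.55, and HOXD4 overlaps HOXD3 as a gene model.

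The 5 other HOXD members were not tested. HOXD13, a gene of digits and the hindgut, had line means of 3.75 ± 0.10, 4.32 ± 0.20 and 3.37 ± 0.26 (SD, n = 4 arrays each) in AGS, MKN1 and SNU601. Its lines did not overlap. HOXD9, the neighbour of HOXD10 on the other side from HOXD11, had line means of 3.69, 4.21 and 3.86. In the fit without a filter MKN1 stood above AGS by 0.56 ± 0.13 for HOXD13 (adjusted p = 0.00314) and by 0.52 ± 0.11 for HOXD9 (adjusted p = 0.00236). HOXD1, HOXD3 and HOXD12 had ranges of line means of 0.28, 0.13 and 0.16.

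HOXA2, which patterns the hindbrain and the neural crest of the second branchial arch, had the largest range of line means of all 27 members, 2.64, but failed the filter through its low signal in AGS. HOXA2 (17056105) read 3.01, 2.89, 2.67 and 2.98 in AGS, 5.54, 5.71, 5.21 and 5.65 in MKN1, and 4.61, 4.64, 4.56 and 4.94 in SNU601. The lines did not overlap, and AGS stood lowest. In the fit without a filter it was 6.23-fold higher in MKN1 than in AGS (log2 difference 2.64 ± 0.10, adjusted p = 1.33e-09), 1.80 ± 0.10 higher in SNU601 than in AGS (adjusted p = 9.98e-08) and lower in SNU601 than in MKN1 by a log2 difference of -0.84 ± 0.10 (adjusted p = 1.76e-05).

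Promoter sequence was at hand for 11 of the 27 members, and the windows of HOXA2 and HOXD10 are shown because they are the pair among these with the largest differences between lines, both highest in MKN1. Each window is the 250 bases before the gene's start in RefSeq (GRCh38.p14), 5′ to 3′ on the gene's strand: chr7:27102684-27102933 on the minus strand for HOXA2, and chr2:176116528-176116777 on the plus strand for HOXD10. Capitals mark CCAAT, the CCAAT box, TATAAA, the TATA box, and TGATNNAT, a site shape bound by HOX proteins with PBX partners, each searched on both strands.
HOXA2 upstream: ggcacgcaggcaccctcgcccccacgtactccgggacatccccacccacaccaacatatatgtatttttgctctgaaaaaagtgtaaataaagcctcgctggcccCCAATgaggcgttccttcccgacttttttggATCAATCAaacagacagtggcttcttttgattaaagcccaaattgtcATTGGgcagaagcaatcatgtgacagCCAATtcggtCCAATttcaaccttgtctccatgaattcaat
HOXD10 upstream: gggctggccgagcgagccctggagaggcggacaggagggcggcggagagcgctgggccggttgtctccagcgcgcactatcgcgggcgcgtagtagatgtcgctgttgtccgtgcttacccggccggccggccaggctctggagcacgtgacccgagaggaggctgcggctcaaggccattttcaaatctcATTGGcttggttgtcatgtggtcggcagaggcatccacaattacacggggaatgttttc
The HOXA2 window held 4 CCAAT motifs, 3 on the printed strand and 1 on the other, and 1 TGATNNAT on the other strand. The HOXD10 window held 1 CCAAT motif, on the other strand, and no TGATNNAT. Over the 35116 windows of all genes, 32.0% held CCAAT, 10.7% TATAAA and 6.47% TGATNNAT, and of the 11 members with a window 9 held CCAAT, 1 TATAAA and 3 TGATNNAT. The windows also differed in base composition, with 47.2% G or C and 8 CpG dinucleotides in HOXA2 and 64.0% and 23 in HOXD10, beside medians of 58.0% and 11 over all windows. These are matches of letters only, and binding was not measured.

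**Figure D4:**
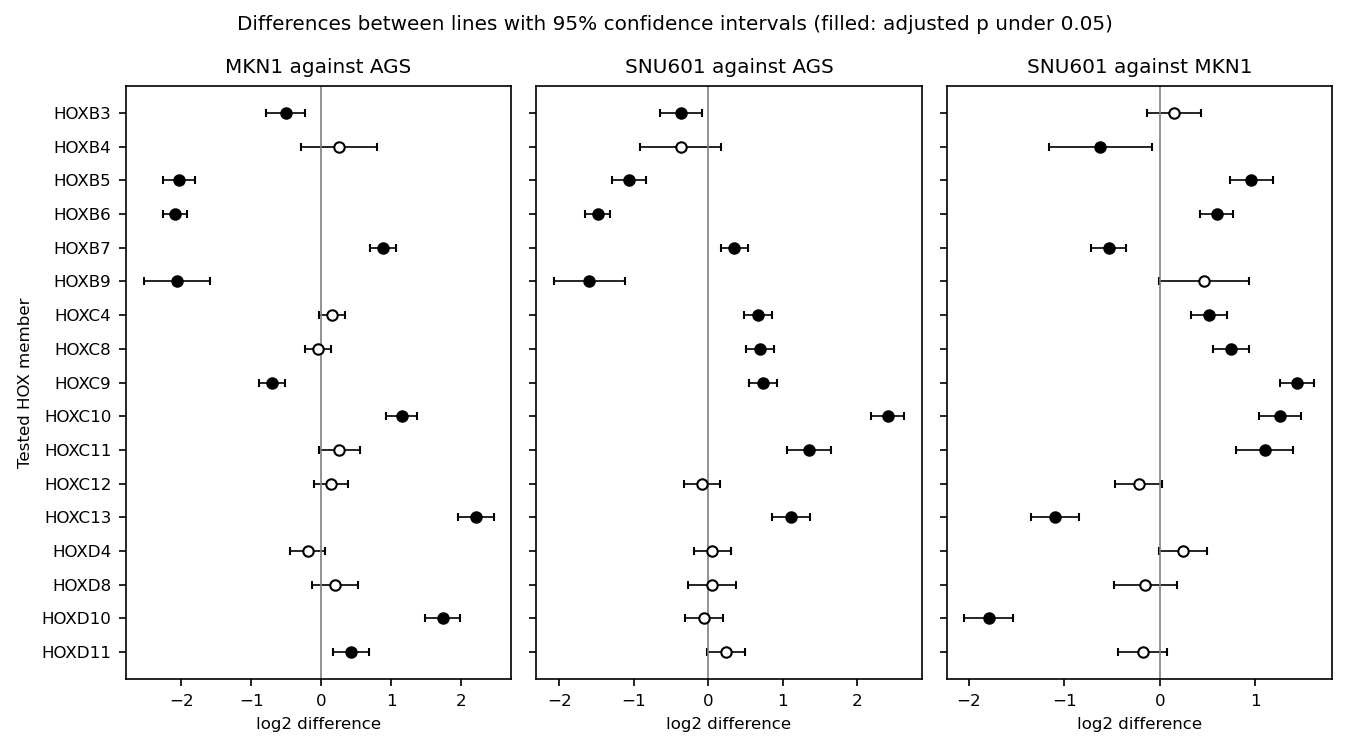
Log2 difference between lines for the 17 tested members, with 95% confidence intervals from limma, where filled circles have an adjusted p under 0.05. HOXB5, HOXB6 and HOXB9 lie below 0 in both comparisons against AGS, and HOXB7 lies above 0 in both.

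Read by paralog number, members of 1 group were often highest in different lines. How often this would arise by chance was not worked out, and HOXA2 was the only HOXA member. In group 9 HOXB9 was highest in AGS, HOXC9 in SNU601 and the untested HOXD9 in MKN1. In group 8 HOXB8, untested, was highest in AGS, HOXC8 in SNU601 and HOXD8 in MKN1, the last without a call. In group 10 HOXC10 was highest in SNU601 and HOXD10 in MKN1. Groups 13 and 2 differed. HOXB13, HOXC13 and HOXD13 each had their highest mean in MKN1, and of these HOXC13 was tested. HOXA2 and HOXB2, both untested, had their highest mean in MKN1 as well, with a range of line means of 0.24 in HOXB2. Counting all 27 members, 6 had their highest line mean in AGS, 13 in MKN1 and 8 in SNU601. Among the tested members these counts were 4, 7 and 6. The share of all genes with their highest mean in each line was not counted. MKN1 stood above both other lines in every array in 21.3% of all tested genes, beside 10.9% for AGS and 13.2% for SNU601.

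The genes that act with or on HOX genes differed between lines in both directions, and their counts stand beside a background of 35.3% higher and 31% lower in MKN1 against AGS, 29.9% and 22.8% in SNU601 against AGS, and 32.3% and 31.1% in SNU601 against MKN1. Of 6 tested TALE cofactors, 2 were higher and 2 lower in MKN1 than in AGS, and 2 were higher and 3 lower in SNU601 than in AGS. MEIS2, which joins HOX and PBX proteins on DNA, had line means of 5.84 in AGS, 6.55 in MKN1 and 6.60 in SNU601 (MKN1 minus AGS 0.71 ± 0.12, adjusted p = 0.000262). PBX4, a PBX partner of HOX proteins, was highest in AGS, with 6.06, 5.57 and 5.34 (SNU601 minus AGS -0.72 ± 0.11, adjusted p = 0.0002). TGIF1, a TALE repressor, had line means of 6.83, 5.84 and 6.21 (MKN1 minus AGS -0.99 ± 0.08, adjusted p = 5.77e-07), and PKNOX1 had line means of 5.63, 5.91 and 5.78. The median difference of the 6 cofactors was 0.06, -0.04 and -0.06 in MKN1 against AGS, SNU601 against AGS and SNU601 against MKN1.

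Of 23 tested Polycomb genes, 6 were higher and 8 lower in MKN1 than in AGS, 7 higher and 6 lower in SNU601 than in AGS, and 9 higher and 6 lower in SNU601 than in MKN1. PHF19, a Tudor-domain partner of Polycomb repressive complex 2, had the widest range, with line means of 4.56 in AGS, 6.86 in MKN1 and 5.34 in SNU601 (MKN1 minus AGS 2.30 ± 0.09, adjusted p = 6.69e-10). PHC1, a polyhomeotic subunit, ran the other way with 6.98, 5.63 and 6.16 (MKN1 minus AGS -1.35 ± 0.15, adjusted p = 5.5e-06). CBX6 had line means of 6.49, 7.69 and 6.92, and PCGF6 of 4.88, 4.47 and 5.25. The median difference of the list was -0.00, 0.11 and 0.12 on the log2 scale in the 3 comparisons, beside 0.02, 0.05 and 0.02 over all tested genes.

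Of 14 tested Trithorax and related activator genes, 6 were higher and 4 lower in MKN1 than in AGS, 3 higher and 5 lower in SNU601 than in AGS, and 3 higher and 6 lower in SNU601 than in MKN1. KDM6A, the demethylase that removes the Polycomb mark, was highest in AGS, with line means of 8.41, 6.84 and 7.24 (MKN1 minus AGS -1.57 ± 0.11, adjusted p = 1.81e-07). CXXC1, which brings a histone methyltransferase to CpG islands, had line means of 5.10, 6.47 and 5.66 (1.37 ± 0.10, adjusted p = 2.24e-07). MEN1, menin, had line means of 6.94, 7.32 and 6.63, and PAXIP1 of 6.96, 6.73 and 7.25. The list's median difference was 0.07, -0.02 and -0.14.

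Among the genes that switch clusters on, CDX2, the intestinal homeobox factor, was highest in AGS with line means of 6.399, 5.26 and 5.95. It was lower in MKN1 than in AGS by a log2 difference of -1.14 ± 0.08 (adjusted p = 1.09e-07) and in SNU601 by -0.45 ± 0.08 (adjusted p = 0.000421). Its line order of AGS, SNU601 and MKN1 was that of HOXB5, HOXB6 and HOXB9, which is a description over 3 lines. This order was not particular to CDX2, since EZH2, PHC1, KDM6A, TGIF1, CRABP2 and PDX1 shared it. A link between CDX2 and the HOXB members was not tested. Of the 4 tested CDX and ParaHox genes, 2 were lower in MKN1 than in AGS, the other one being PDX1 (-0.52 ± 0.12, adjusted p = 0.00232), and GSX2 and CDX1 were not called. Of 5 tested retinoic acid genes 3 were higher and 1 lower in MKN1 than in AGS: STRA6, the retinol transporter, had line means of 4.37, 5.51 and 4.30, DHRS3 5.50, 6.58 and 6.42, and CRABP2, a retinoic acid carrier, 7.85, 6.16 and 7.30. RDH10, the retinol dehydrogenase, was highest in SNU601, with line means of 6.001, 5.87 and 7.06. Of the 20 genes listed for retinoic acid these and NRIP1 were analysed here.

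No tested member was called for any treatment. With Rhosin against DMSO 0 of 17 members passed an adjusted p of 0.05, as did 0% of all tested genes, and the smallest adjusted p of a member was 0.576. At an unadjusted p under 0.05 there were 4 members, or 23.5%, beside 6.27% of all genes: HOXC8, HOXC10, HOXC11 and HOXC13, all of the HOXC cluster. Their differences were 0.34 ± 0.10, 0.35 ± 0.12, 0.46 ± 0.15 and 0.32 ± 0.13 on the log2 scale, with adjusted p values of 0.576, 0.694, 0.694 and 0.738 in limma. Each was above 0 in all 3 lines.

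HOXC8 gave Rhosin minus DMSO of 0.23, 0.33 and 0.46 in AGS, MKN1 and SNU601. HOXC10 gave 0.66, 0.17 and 0.23, and HOXC11 0.43, 0.17 and 0.79. HOXC13 gave 0.22, 0.32 and 0.43. The Rhosin array held the highest HOXC13 value of each line and the highest HOXC8 and HOXC10 values too. HOXB9 had the largest single difference, 0.98 in AGS, with 0.26 in MKN1 and 0.19 in SNU601, and did not pass the test (0.48 ± 0.25, adjusted p = 0.807).

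Across the tested members, 16 of 17 had a Rhosin minus DMSO mean above 0, with HOXD10 at -0.02 as the exception, and the median was 0.13. Over all tested genes 45.0% lay above 0 and the median was -0.02. Over the 5740 tested genes whose mean signal was no higher than that of the highest member, 48.8% lay above 0. By line the members' median was 0.23, 0.03 and 0.14 (AGS, MKN1, SNU601), with 14, 9 and 12 of 17 above 0. Without AGS 11 of 17 members lay above 0, with median centring of the arrays 15, and among the 10 untested members 6 did. The members share arrays and differ in the same arrays, so the count is not one of independent genes, and no test of it was made.

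**Figure D5:**
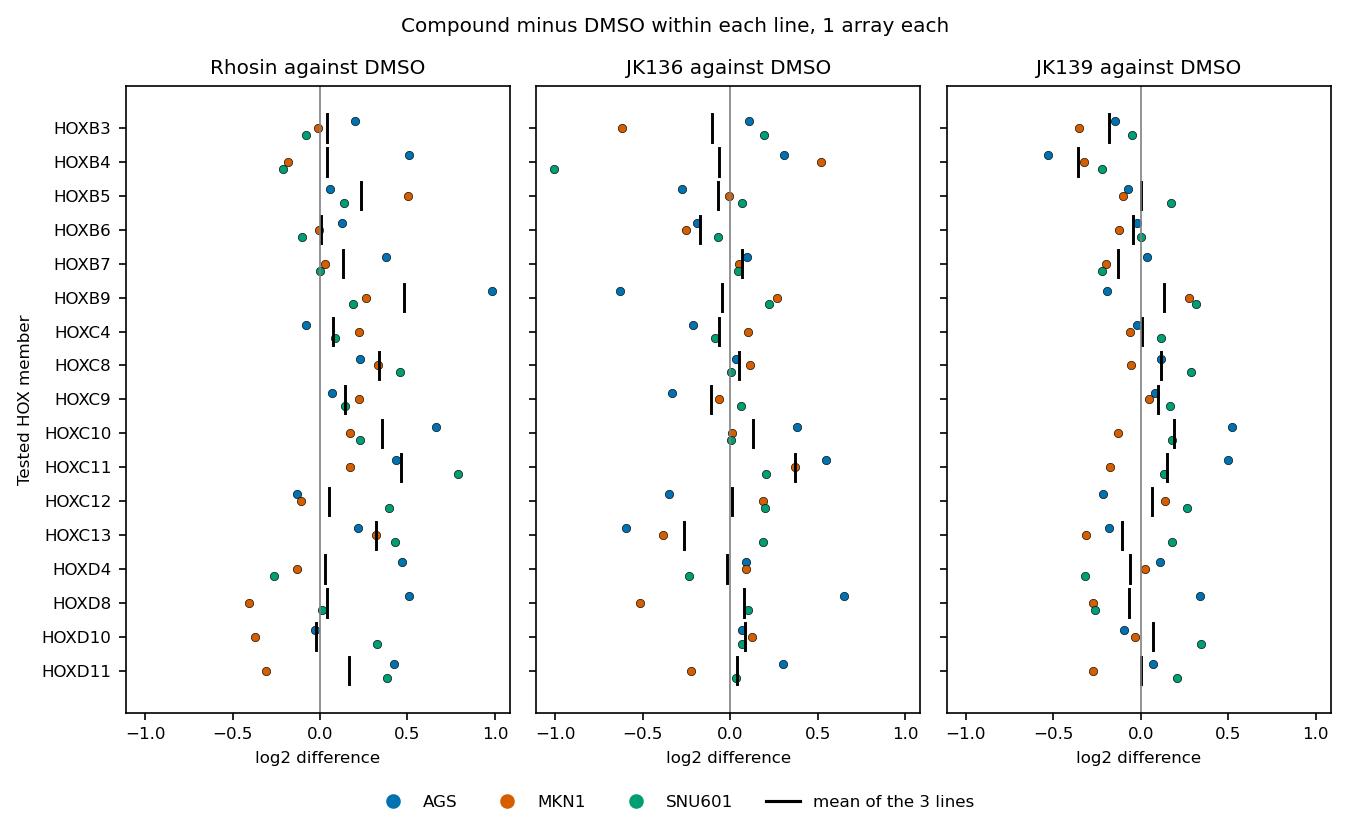
Log2 difference of each compound from DMSO within each line (coloured points, 1 array against 1) for the 17 tested members, with the mean of the 3 lines as a black bar. With Rhosin 16 of 17 means lie above 0, and with JK136 and JK139 8 of 17 do.

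With JK136 against DMSO 0 members were called (background 0%), and 1 had an unadjusted p under 0.05, beside 5.25% of all genes. This was HOXC11, with 0.37 ± 0.15 (adjusted p = 0.902) and differences of 0.55, 0.37 and 0.20 by line. HOXC13 gave -0.27 ± 0.13 (adjusted p = 0.902) and HOXB6 -0.17 ± 0.09 (adjusted p = 0.902). HOXB4 spread the most between lines, with 0.30, 0.52 and -1.01 (AGS, MKN1, SNU601). Of the 17 tested members 8 lay above 0 and the median was -0.02.

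With JK139 against DMSO 0 members were called (background 0%) and 0 had an unadjusted p under 0.05, beside 2.44% of all genes. The 3 of smallest p were HOXC10 with 0.19 ± 0.12, HOXB7 with -0.13 ± 0.10 and HOXB4 with -0.36 ± 0.29. Members above 0 again numbered 8 of 17. Averaged over all 3 compounds, treatment against DMSO gave 0 called members (background 0%) and 2 with an unadjusted p under 0.05, beside 3.37% of all genes: HOXC11 with 0.33 ± 0.13 and HOXC10 with 0.22 ± 0.10, both with an adjusted p of 0.9997. HOXC8 followed with 0.17 ± 0.08. The median half-width of the 95% confidence interval of a member was 0.29 for 1 compound against DMSO.

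Pairs of compounds were set against each other as well, on the same Rhosin, JK136 and JK139 arrays as above. Doses were not stated, so these are differences between the treatments as applied. JK136 against Rhosin gave 0 called members (background 0%) and 4 with an unadjusted p under 0.05, beside 9.09% of all genes. HOXC13 had the smallest p, with differences of -0.81, -0.70 and -0.25 by line, AGS first (mean -0.59 ± 0.13, unadjusted p = 0.000904, adjusted p = 0.351). HOXC8 gave -0.29 ± 0.10, HOXC9 -0.26 ± 0.10 and HOXB5 -0.31 ± 0.12. Of 17 members 15 lay below 0, with a median of -0.14 beside -0.01 over all genes, and HOXD8 and HOXD10 lay above. Without AGS 12 of 17 members lay below 0, and 12 without SNU601.

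JK139 against Rhosin gave 0 called members (background 0%) and 3 with an unadjusted p under 0.05, beside 7.42% of all genes. These were HOXC13 with -0.43 ± 0.13 (adjusted p = 0.57), HOXB7 with -0.26 ± 0.10 and HOXC8 with -0.22 ± 0.10, each below 0 in all 3 lines. Of 17 members 15 lay below 0, with HOXC12 and HOXD10 above, while 50.5% of all tested genes lay above 0. Without AGS 13 lay below 0. The counts for Rhosin against DMSO and for both JK compounds against Rhosin rest on the same 3 Rhosin arrays. JK139 against JK136 gave 0 called members (background 0%) and 0 with an unadjusted p under 0.05, beside 5.53% of all genes. HOXC9 came closest, with 0.21 ± 0.10 (adjusted p = 0.891, 95% confidence interval -0.0014 to 0.42), followed by HOXB7 with -0.19 ± 0.10 and HOXC11 with -0.22 ± 0.15.

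A line by treatment interaction, with the 3 compounds of a line as replicates of any compound, tested whether the lines differed in response. It called 0 members (background 0%), and 1 had an unadjusted p under 0.05, beside 2.73% of all genes. That was HOXD8, with a mean difference of the 3 compounds from DMSO of 0.50, -0.40 and -0.05 by line, AGS first (unadjusted p = 0.0118, adjusted p = 0.9999). No gene of the TALE, Polycomb, Trithorax, retinoic acid or CDX lists was called in any treatment comparison.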

How the data were processed

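Total RNA of 12 cell line samples was read on whole-transcript arrays. The authors deposited log2 signals made by RMA, a method of background correction, quantile normalization and probe summary. Per the submitters' processing notes the software was Affymetrix Expression Console. Its version and the annotation release are not given in the sources used here. Of 53617 transcript clusters in the table, 16098 were paired with 1 gene symbol and the rest are unnamed here. Each symbol was taken at its cluster of highest mean, and genes under the 40th percentile of means were left out. Lines and treatments were compared with limma 3.58.1 in R 4.3.3 on all 12 arrays, with line and treatment as fixed terms and 6 residual degrees of freedom. Benjamini-Hochberg adjustment ran over 8930 genes, and errors are standard errors unless named SD. The script was tested on simulated data. Alternatives covered normalization, filter, moderation, array weights, the line and treatment terms, a fold threshold, every cluster on its own, and each array or line left out. Recounts of the direction of the members' compound differences were chosen after seeing the data. Full array values were given for members called between lines, at most 14 by range of line means, for the 3 members of smallest p in each treatment comparison, and for any of at least 1.5-fold with 1 sign in all lines. HOXA2, other untested members and further members named in the treatment comparisons were chosen after their values were seen. Of each other list at most 4 tested genes of largest range were named, except noncoding genes of the clusters. The members and lists were chosen with earlier results of these data known. Promoter and microRNA sequences came from RefSeq tables by symbol. The number of arrays limits the precision, and probes of overlapping or near-identical genes may share signal.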

Additional observations from a re-analysis of the deposited data

Results flagged for a closer look

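Of 81 groups of 4 arrays (27 members in 3 lines), 3 held an array that stood apart from the other 3 by Dixon's ratio, or 3.70%, where chance gives about 1 in 20. HOXB5 read 5.47 in the Rhosin array of MKN1, against 4.86 to 4.97 in the other MKN1 arrays. HOXB9 read 5.64 in the DMSO array of MKN1, against 5.90 to 5.91 in the others. HOXD3, which was not tested, read 3.67 in the Rhosin array of AGS, against 3.35 to 3.39. Since each array of a line had a different treatment, a single array and its treatment cannot be told apart.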

How the results depend on the processing

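The counts of called members were 10, 11 and 11 in MKN1 against AGS, SNU601 against AGS and SNU601 against MKN1. With the filter at the 60th percentile, under which 4 members were tested, they were 4, 3 and 3. With a change of at least 2-fold required as well they were 6, 6 and 5. With 1 array left out they ranged from 10 to 11, 10 to 11 and 10 to 13, and over all 22 alternatives the highest were 15, 12 and 14. Counts for the treatments and for the interaction were 0 under every alternative run. Of 32 named differences between lines 15 fell under the 2-fold requirement. Under the other alternatives in which they were tested 30 kept their call. The exceptions were HOXB3 in SNU601 against AGS and HOXB4 in SNU601 against MKN1, which missed the threshold without several arrays and also without the filter (adjusted p = 0.0606 and 0.0658). The cause was not tested. No difference reversed. The interaction could not be fitted without a DMSO array. The number of arrays, 1 for each line and treatment, limits every treatment result. Treatments were compared within lines in the reported fit, through its term for line. A further block by replicate number could not be fitted, since the groups share fewer than 2 such numbers.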

Other observations

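Further genes in and beside the clusters differed between lines. SKAP2, an adaptor protein gene that flanks the HOXA cluster, had line means of 5.05, 6.56 and 3.31 (AGS, MKN1, SNU601), and differed from AGS by 1.51 ± 0.09 in MKN1 (adjusted p = 4.02e-08 in limma) and by -1.74 ± 0.09 in SNU601 (adjusted p = 3.27e-08). Its order was not that of HOXA2, which stood lowest in AGS. HOXA11-AS, an antisense RNA of the same cluster that was not tested, read 4.47 to 4.84 in MKN1, above 3.18 to 3.98 in AGS and 3.65 to 3.73 in SNU601. Beside the HOXC cluster, CBX5, heterochromatin protein 1 alpha, had line means of 6.10, 7.20 and 5.97, HNRNPA1 8.43, 7.51 and 8.12, and CALCOCO1 7.73, 6.71 and 7.03. None of these flanking genes was highest in SNU601, whereas HOXC8, HOXC9, HOXC10 and HOXC11 each were. Of 13 tested flanking genes 5 were higher and 4 lower in MKN1 than in AGS, beside 35.3% and 31% of all tested genes. In SNU601 against AGS 1 was higher and 5 lower, beside 29.9% and 22.8%. In SNU601 against MKN1 4 were higher and 5 lower, beside 32.3% and 31.1%.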
